A study of Saccharomyces cerevisiae with 12 samples.

Results

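A pair of point changes in Scc2 was compared by the RNA of budding yeast that depended on the changed protein: R787G, an arginine changed to glycine, and G1242V, a glycine changed to valine, where the number is the residue of the protein. The comparison rests on 6 of the 12 libraries in the series, 3 labelled R787G and 3 labelled G1242V. It covers every feature with a mean of 1 or more TPM (a share of all transcripts, corrected for transcript length) over the 12 libraries, which is 6097 of 7033 features. Log2 differences are R787G minus G1242V throughout, so a positive value is a higher level in the libraries labelled R787G.

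Scc2 forms, with Scc4, the complex that loads cohesin onto chromosomes and stimulates the cohesin ATPase. Cohesin is the ring, built on Smc1 and Smc3, that holds sister chromatids together from replication to anaphase and folds chromosomes into loops. Human NIPBL is the counterpart of Scc2, and changes in it cause Cornelia de Lange syndrome. In yeast, cells without working loader cannot establish cohesion and are held up in mitosis, while effects on transcription have been reported for genes of ribosome assembly and translation.

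All strains were W303, mating type a. Each carried the chromosomal gene as SCC2-AID*-6FLAG, a degron fusion whose protein is destroyed when auxin is added, together with OsTIR1, the plant receptor that this needs, driven by the ADH1 promoter. The plasmid was a pRS413 vector with HIS3, holding scc2-R787G-7MYC, scc2-G1242V-7MYC, wild-type SCC2 (WT) or no insert (called null in the labels, empty_vector here). The degron background and the treatment were thus the same in every group, WT included: growth without histidine, 90 min after dilution, then 3 h in 1 mM auxin. Per the labels the cultures were grown in triplicate, the null strain in duplicate, although 3 null libraries are present. Nothing says whether replicates came from separate transformants, so p-values measure the spread between these libraries only.

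The changed codons were read from the reference coding sequence of SCC2 (S288C, R64; 1493 codons), with the codon in capitals, to show where the alleles differ. Both lie in the same exon on the plus strand of chromosome IV.
SCC2 arginine codon of R787G, chrIV:823632-823676: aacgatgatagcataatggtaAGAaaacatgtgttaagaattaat
SCC2 glycine codon of G1242V, chrIV:824997-825041: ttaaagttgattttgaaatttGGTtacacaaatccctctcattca
The deposited values are sums over a gene and hold no reads, so which of these alleles a library carries could not be read from them.

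Levels are TPM scaled per library so that the median ratio between libraries is equal, written as scaled TPM; differences are on log2(scaled TPM + 1). No counts can be recovered from TPM, which leaves sequencing depth unknown; intervals for counting error are not given. Between 6480 and 6587 features were above 0 in the 12 libraries. The mating-type label was met: STE2, the pheromone receptor of a cells, was at 125, 108 and 108 in R787G and 121, 122 and 114 in the libraries labelled G1242V, and STE3, the receptor of alpha cells, at 5.99, 6.1 and 5.58 and 6.47, 5.92 and 6.47.

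The level of SCC2 itself set the libraries labelled G1242V apart from each other. SCC2 (YDR180W) stood at 86.5, 99.6 and 90.2 scaled TPM in R787G libraries 1 to 3 and at 51.2, 93.2 and 12.4 in libraries 1 to 3 labelled G1242V. Library 2 labelled G1242V was inside the R787G range, library 1 lay below it, and library 3 was at the level of empty_vector, 12.8, 12.5 and 12.1, where the degron-tagged chromosomal gene is the only copy. The fitted difference was 1.20 (SE 0.50, limma, Benjamini-Hochberg adjusted p = 0.22). HIS3 (YOR202W), the histidine synthesis gene that selects for the plasmid, ran the other way, at 1049.6, 1353 and 872 in R787G and at 2498, 1042 and 2779.8 in the libraries labelled G1242V. Library 2 was again with R787G, while libraries 1 and 3 were near empty_vector, at 3500.2, 2590.2 and 2423. HIS3 differed by -0.85 (SE 0.31, limma adjusted p = 0.19), and with library 2 alone the value turned to 0.04. YOR203W, a reading frame without a match in the reference, had the order of HIS3 among the libraries labelled G1242V, at 1024, 418 and 1114. In R787G it was at 441, 399.7 and 349, where the order differed from that of HIS3. By its systematic name it neighbours HIS3, and whether the 2 share reads was not tested. Library 3 labelled G1242V goes against its label in SCC2 level, and results are given by library for that reason.

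**Figure D1:**
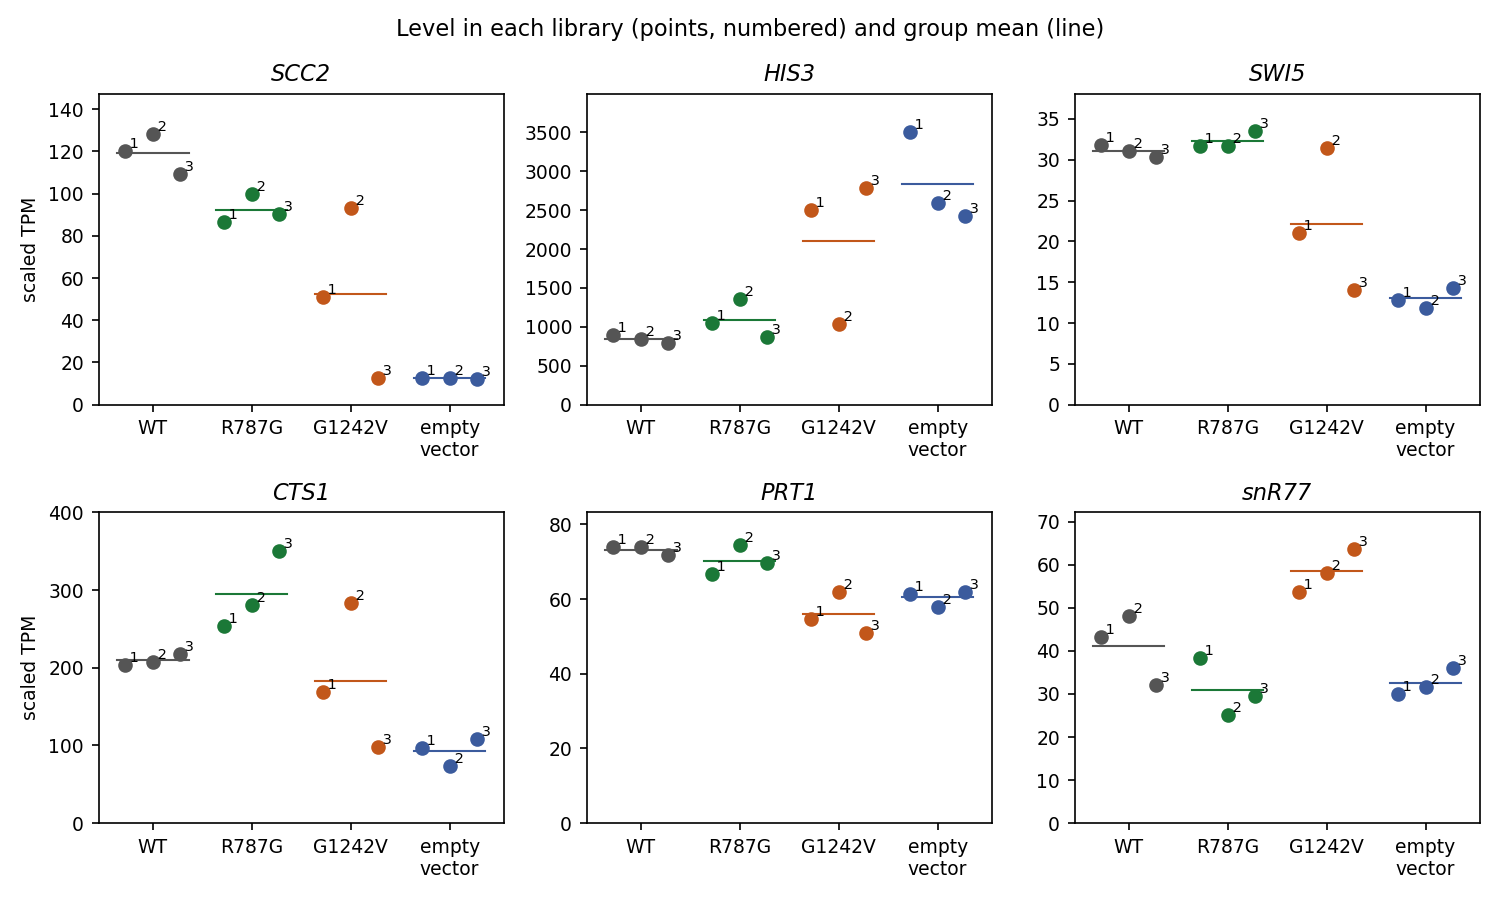
Scaled TPM (vertical axes, from 0) of SCC2, HIS3, SWI5, CTS1, PRT1 and snR77 in each library (numbered points) of the 4 groups, with the group mean as a line and 3 libraries per group. For SCC2, SWI5 and CTS1 library 3 labelled G1242V is near empty_vector and library 2 near R787G, while for PRT1 and snR77 all 3 lie on one side of R787G.

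The libraries of both labels were otherwise close. Over the 6097 features the root mean square log2 difference between an R787G library and one labelled G1242V was 0.212 to 0.407 (median 0.319), against 0.255 to 0.324 among R787G libraries and 0.230 to 0.251 among those labelled G1242V. The 3 libraries labelled G1242V thus differed less from each other than the R787G libraries did, although SCC2 differed widely among them. Per feature, the SD of log2 was larger in the libraries labelled G1242V at only 1950 features (32%), and its median was 0.0759 against 0.118 in R787G. Mean distance to R787G was 0.321, 0.270 and 0.338 for libraries 1 to 3 labelled G1242V, and mean distance to empty_vector was 0.283, 0.338 and 0.279. By these means library 2 was nearer to R787G, and libraries 1 and 3 were nearer to empty_vector. The R787G libraries were not alike in this. R787G library 1 was at 0.250, 0.212 and 0.271 from libraries 1 to 3 labelled G1242V, and at 0.255 and 0.324 from R787G libraries 2 and 3. R787G library 3 was at 0.395, 0.322 and 0.407 from those labelled G1242V. At 47.2% of features library 2 was the nearest of the 3 to the R787G mean, against 29.8% for library 1 and 23% for library 3. Libraries 1, 2 and 3 fell outside the range of the R787G libraries at 56.6%, 46.6% and 60.6% of features.

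No feature was called between the groups by limma at an adjusted p under 0.05 (0 of 6097, 0%), and the smallest adjusted p was 0.117. At an unadjusted p under 0.05 there were 1228 features (20.1%), with 632 higher in R787G (10.4%) and 596 lower (9.78%). Without library 3 labelled G1242V that count was 621. The groups did not overlap at 1435 features (23.5%), of which 673 were higher in R787G (11%) and 762 lower (12.5%). Differences were small: of the features without overlap, 1 was at least 2-fold higher (0.0164%), YML007C-A at 5.96, 5.21 and 5.14 against 3.04, 1.61 and 0.849. At least 2-fold lower were 3 (0.0492%), YMR320W, YOR108C-A and YAR066W, of which YOR108C-A was at 4.55, 2.32 and 2.24 against 8.42, 4.91 and 7.73. These 4 were named after their values were seen, and 3 of them are at a few TPM. The median over all features was close to 0 and 49.4% lay above it. With 3 libraries a group, an exact permutation test of a single gene cannot go below p = 0.1, and none is given.

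**Figure D2:**
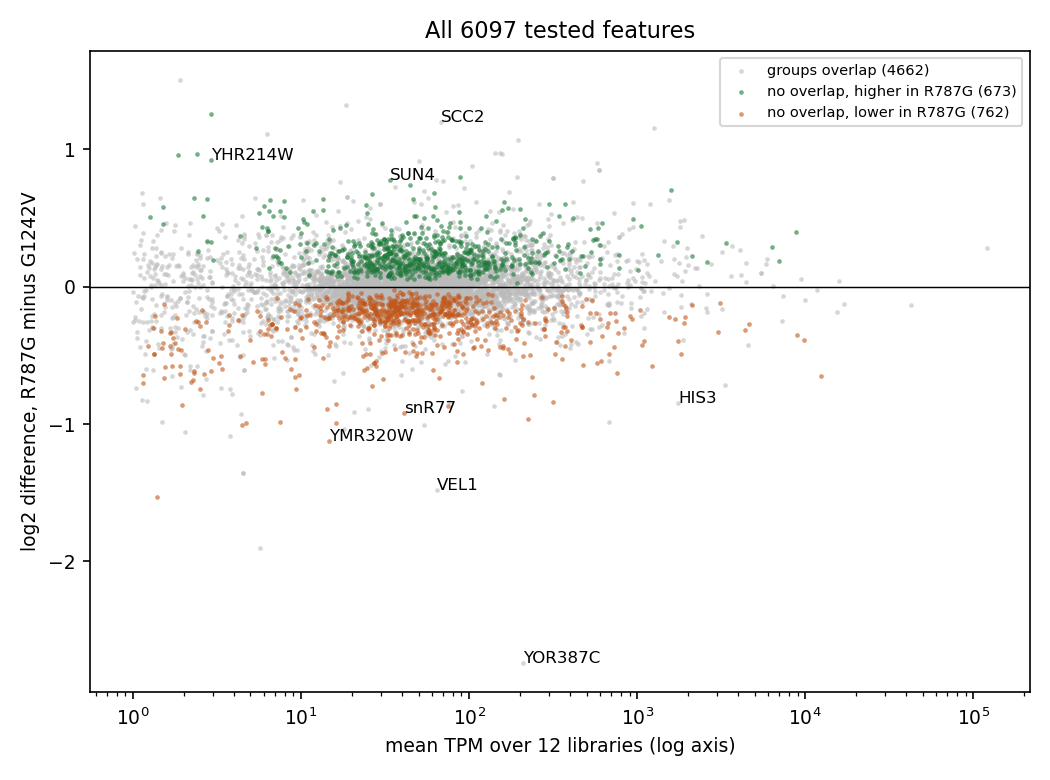
Log2 difference, R787G minus G1242V (vertical axis), against mean TPM over 12 libraries (horizontal log axis) for the 6097 tested features. Green points (673) and orange points (762) are features at which the 3 libraries of each label do not overlap, and most of these lie within 1 log2 unit of 0.

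The features of smallest p on the high side of R787G differed by modest amounts and had varied roles. CYC3, the lyase that attaches heme to cytochrome c, was at 43.7, 58.2 and 62 in R787G and at 37.2, 35.9 and 30.7 in the libraries labelled G1242V (0.64, SE 0.12). All 3 R787G libraries were above all 3 others, with library 1 the lowest of them. CAT2, the carnitine acetyltransferase of peroxisomes and mitochondria, was at 50.9, 48.8 and 53.7 against 42.5, 39 and 34.8 (0.39, SE 0.07). TES1, a peroxisomal thioesterase, was at 34.3, 35 and 34 against 29.1, 28.9 and 29.3, a narrow gap but one wider than the spread in either group. MAL31, a maltose permease gene with near-identical relatives, was at 51.3, 54.4 and 51.2 against 43.7, 33.3 and 33. Library 1 labelled G1242V lay between the R787G libraries and the other libraries of its label here, and the same held for YNR014W (63.4, 60.5 and 65.9 against 47.9, 35.6 and 35). The arginase gene CAR1 was at 12.2, 13.5 and 13.3 against 9.95, 9.96 and 7.85. DPH5, of diphthamide synthesis, was at 67, 70.3 and 69 against 58.2, 58.9 and 53.3. YHR214W, a subtelomeric reading frame that has close copies, was at 4.43, 4.62 and 4.46 against 1.98, 1.84 and 1.88. Its copy YAR066W was listed at 0 in all 3 R787G libraries and held the same values as YHR214W in the libraries labelled G1242V. Summed over the pair, the levels were 4.43, 4.62 and 4.46 against 3.96, 3.67 and 3.75, a much narrower gap, so the value of either copy alone is uncertain. None of these genes was called.

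In the other direction, the widest gap between the groups at a mean TPM of 5 or more was that of YMR320W, an unnamed reading frame, at 12.8, 10.1 and 7.16 in R787G and 19.2, 19.4 and 30.6 in the libraries labelled G1242V (-1.13, SE 0.20). Library 3 labelled G1242V was the highest and R787G library 3 the lowest. RTT102, a subunit of the SWI/SNF and RSC remodelers, was at 91.2, 91.9 and 84.4 against 109.9, 108 and 111 (-0.30, SE 0.05), and the libraries labelled G1242V were nearly equal. ORC5, of the origin recognition complex, was likewise even, at 57.1, 52.7 and 57.9 against 67, 68.5 and 67.3. VPS20, of the ESCRT-III complex, was at 40, 41.8 and 42.5 against 56.9, 51.5 and 58.6. SKS1, a protein kinase gene, was at 238, 200.3 and 184 against 278, 327 and 384. The subtelomeric family gene COS10 was at 28.3, 32.1 and 26 against 36.2, 39 and 46.4. PRP42, of the U1 snRNP, was at 32.3, 29 and 29.5 against 35.6, 38.2 and 38.8. In none of these did the groups overlap, and all adjusted p by limma were at or above 0.117.

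Of the cohesin ring, its loader and their regulators, 12 genes were tested and none was called. The groups did not overlap for SCC4, PDS5 and RAD61, 3 of 12 (25%, with 23.5% of all features), which is near the share over all features. SCC4, the partner subunit of Scc2, was at 24.2, 27.1 and 29.9 in R787G and 23.5, 21.1 and 23.8 in the libraries labelled G1242V (0.23, SE 0.10). Its level in library 2 labelled G1242V was the lowest, so it did not follow that of SCC2. PDS5, a cohesin-bound regulator, was at 11.6, 11.8 and 11.4 against 13.1, 12.4 and 13.2 (-0.14, SE 0.06). RAD61, the yeast Wapl that releases cohesin, was at 20.2, 19.3 and 20.3 against 22.9, 22.3 and 24.2 (-0.21, SE 0.08). MCD1, the kleisin that closes the ring and peaks at G1/S, was at 8.41, 7.77 and 8.48 against 6.59, 9.26 and 6.18, low in libraries 1 and 3 labelled G1242V and highest in library 2. The ring ATPases SMC1 and SMC3 differed by 0.03 (SE 0.06) and 0.01 (SE 0.06). IRR1, the Scc3 subunit, differed by -0.09 (SE 0.06), the acetyltransferase gene ECO1 by 0.04 (SE 0.15) and the deacetylase gene HOS1 by -0.15 (SE 0.07). The separase gene ESP1 differed by -0.09 (SE 0.07) and the securin gene PDS1 by 0.02 (SE 0.09), with overlap in both. The list median was 0.02.

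Genes of late mitosis and of the new daughter cell showed the order of SCC2 among the libraries labelled G1242V. They include the enzymes that cut the septum between mother and daughter as mitosis ends. Of 20 such genes tested, 18 lay above 0, with a median of 0.56, and none was called. At an unadjusted p under 0.05 were 12 (10.4% of all features were, in that direction). The groups did not overlap at 2, both higher in R787G (10%, with 11% of all features). Against the R787G mean the list median was -0.48, 0.02 and -1.05 in libraries 1, 2 and 3 labelled G1242V. The 3 R787G libraries themselves stood at -0.11, -0.03 and 0.17 against the other 2, and empty_vector at -0.87, -1.10 and -0.85. WT stood at -0.32, -0.30 and -0.25, below R787G, although its SCC2 was higher, at 120, 128 and 109 scaled TPM. Across all 4 groups the list thus did not follow the level of SCC2. For 18 of the 20 genes (90%) library 3 labelled G1242V was below library 1 and library 1 below library 2, an order found at 21.5% of all features. At 12 of them (60%) libraries 1 and 3 were below every R787G library while library 2 was inside their range, against 8.74% of all features.

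CTS1, the chitinase that degrades the septum, was at 254, 281 and 350.4 scaled TPM in R787G and at 169, 284 and 97.8 in the libraries labelled G1242V (0.80, SE 0.30, limma adjusted p = 0.19). Library 2 lay within the R787G values, library 1 below them and library 3 with empty_vector, at 97.4, 73.7 and 108. DSE1, which acts in daughter separation, followed the same order, at 75.5, 85.8 and 88.6 against 49.8, 92.9 and 28.1 (0.70, SE 0.32, limma adjusted p = 0.245). The septum glucanase gene DSE4 was at 93.7, 107 and 124 against 60.4, 112 and 36.2. SUN4, a septation gene, and NIS1, of the bud neck, were the 2 without overlap. SUN4 was at 40.7, 45.8 and 56.8 against 27.8, 40.2 and 17.8 (0.78, SE 0.23, limma adjusted p = 0.132), and NIS1 at 31.6, 30 and 28.2 against 22, 26.8 and 14.1. In both, library 2 labelled G1242V was just below the lowest R787G library. The 2 members without that order were HO, at 2.68, 3.37 and 2.02 against 3.18, 2.99 and 3.28, and TEC1, at 26.5, 26.2 and 25 against 25.5, 27.9 and 27.1. RME1 had the order, at 288, 255 and 238 against 256, 281 and 221, but there library 1 labelled G1242V was inside the R787G range.

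DSE2, a glucanase gene of the daughter cell, was at 146, 139.5 and 190.5 against 113, 176 and 53.8, and EGT2, of septum degradation, at 81.7, 82.2 and 124 against 54.2, 91.2 and 32.5. In both, library 2 labelled G1242V was within the R787G range and library 3 lowest.

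Genes of the CLB2 cluster, transcribed from G2 into mitosis under the forkhead factor Fkh2, had a median of 0.18 over 46 members. There were 20 above 0 at an unadjusted p under 0.05 (10.4% of all features were, in that direction). Without overlap on that side were 9 (19.6%, with 11% of all features). By library the median was -0.24, -0.02 and -0.36. Libraries 1 and 3 labelled G1242V were below R787G with library 2 inside its range at 18 members (39.1%, with 8.74% of all features). SWI5 was at 31.7, 31.7 and 33.6 in R787G and 21, 31.5 and 14 in the libraries labelled G1242V (0.59, SE 0.20), library 2 being level with R787G. The cyclin gene CLB2 was at 9.15, 10.2 and 9.29 against 5.8, 9.68 and 4.52. CHS2, the chitin synthase of the primary septum, was at 15.8, 16.9 and 19.7 against 10.3, 15.7 and 7.86, and HOF1, of the contractile ring, at 7.37, 8.6 and 7.94 against 4.48, 7.07 and 3.81. In each of these genes library 3 was lowest and library 2 highest among those labelled G1242V. The forkhead letters GTAAACA were searched on both strands in the 500 bases before each start codon (R64), as a description of the sequence only, and W303 may differ from the reference. They were present before 21 of the 46 genes (45.7%), against 10.4% of all promoters. G1/S genes had a median of 0.05 over 67 members. Without overlap, 9 were higher in R787G (13.4%, with 11% of all features) and 7 lower (10.4%, with 12.5%), both near the share over all features. In bulk RNA, fewer cells at a stage of the cycle and less RNA per cell cannot be told apart.

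**Figure D3:**
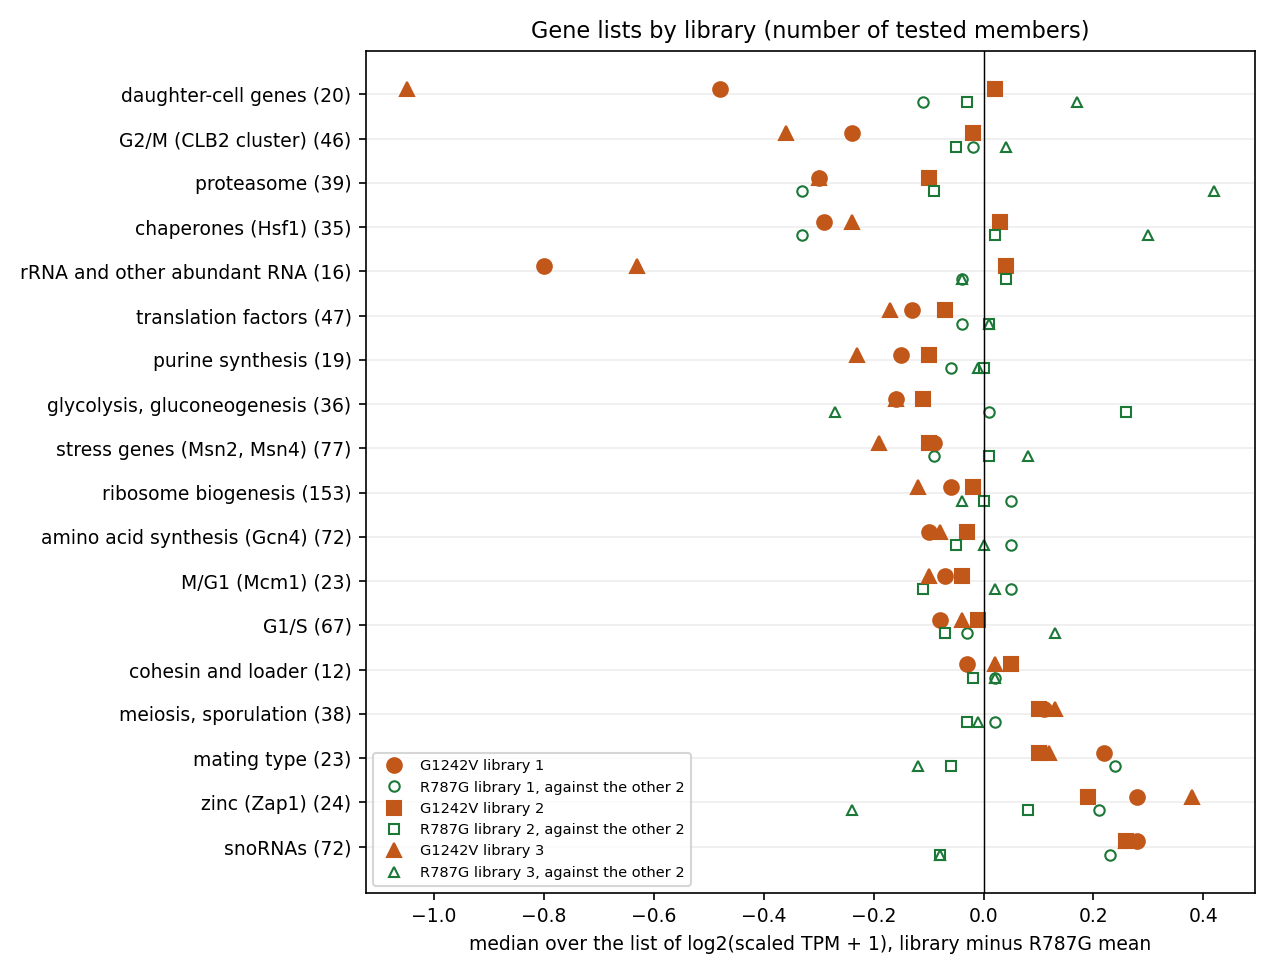
Median log2 difference from the R787G mean (horizontal axis) for 18 gene lists, with the number of tested members in brackets. Filled orange symbols are the 3 libraries labelled G1242V and open green symbols are each R787G library against the other 2; the daughter-cell list spreads from -1.05 to 0.02, while the snoRNA list lies between 0.26 and 0.28.

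Ribosomal RNA left after depletion moved in the same libraries. Over 16 features of ribosomal and other abundant RNA, the median was -0.80, 0.04 and -0.63 in libraries 1 to 3 labelled G1242V. At 9 of them (56.2%, with 8.74% of all features) libraries 1 and 3 were below R787G with library 2 inside its range. The 18S gene RDN18-1 was at 503, 363 and 299 in R787G and 106, 416 and 208 in the libraries labelled G1242V. RDN18-2 has identical values, and RDN25-1 and RDN25-2 also share theirs, so the 16 features are not all separate measurements. SCR1, the signal recognition particle RNA, was at 12.1% to 17.1% in R787G and at 12%, 12.1% and 10.6% in the libraries labelled G1242V. These percentages are scaled TPM over the nominal total of unscaled TPM. Scaled totals differ between libraries, so the percentages compare levels and are not shares of a library. The part of depletion or RNA quality in the other differences was not tested.

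The proteasome list was lower in libraries 1 and 3 labelled G1242V than in library 2, and its R787G libraries also differed among themselves. The order of SCC2 held for 12 of 39 members (30.8%, with 21.5% of all features). At 25 members (64.1%, with 8.74% of all features) libraries 1 and 3 were below every R787G library and library 2 was inside their range. All but 1 of the 39 members lay above 0 (median 0.23), none was called and none was without overlap. Libraries 1 to 3 labelled G1242V stood at -0.30, -0.10 and -0.30, and R787G libraries 1 to 3, each against the other 2, at -0.33, -0.09 and 0.42. RPN10, a ubiquitin receptor of the proteasome, was at 164, 221 and 265 against 136, 165 and 132, with R787G library 1 inside the other group's range. Chaperone genes under Hsf1 stood at -0.29, 0.03 and -0.24, library 1 being lowest, with R787G at -0.33, 0.02 and 0.30. No member was higher in R787G without overlap among 35. At 11 of these chaperone genes (31.4%) libraries 1 and 3 were below R787G with library 2 inside its range.

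Translation factor genes lay lower in all 3 libraries labelled G1242V, library 2 included, and least so in library 2. Translation factors had a median of 0.12 over 47 members, 39 above 0, and 20 were higher in R787G without overlap (42.6%, with 11% of all features) and 3 lower. By library the median was -0.13, -0.07 and -0.17, and each R787G library against the other 2 was between -0.04 and 0.01. The order of SCC2 held for 22 members (46.8%, with 21.5% of all features). PRT1, a subunit of the initiation factor eIF3, was at 66.6, 74.6 and 69.8 in R787G and at 54.7, 61.9 and 51 in the libraries labelled G1242V (0.33, SE 0.07, limma adjusted p = 0.117). All 3 libraries labelled G1242V were below all R787G libraries, and library 2 was the highest of them. The poly(A)-binding protein gene PAB1 was at 328, 375 and 387 against 289, 306 and 290.3. TIF5, the eIF5 gene, was at 48.7, 49.7 and 65.8 against 39, 45.8 and 35.6. TEF4, an elongation factor gene whose intron holds snR38, was at 110.3, 138 and 135 against 92.3, 104.6 and 86.6. In these genes too the groups stayed apart. SUI1, the gene of eIF1, went the other way, at 490.3, 371 and 429.8 against 524, 549.7 and 497.

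**Figure D4:**
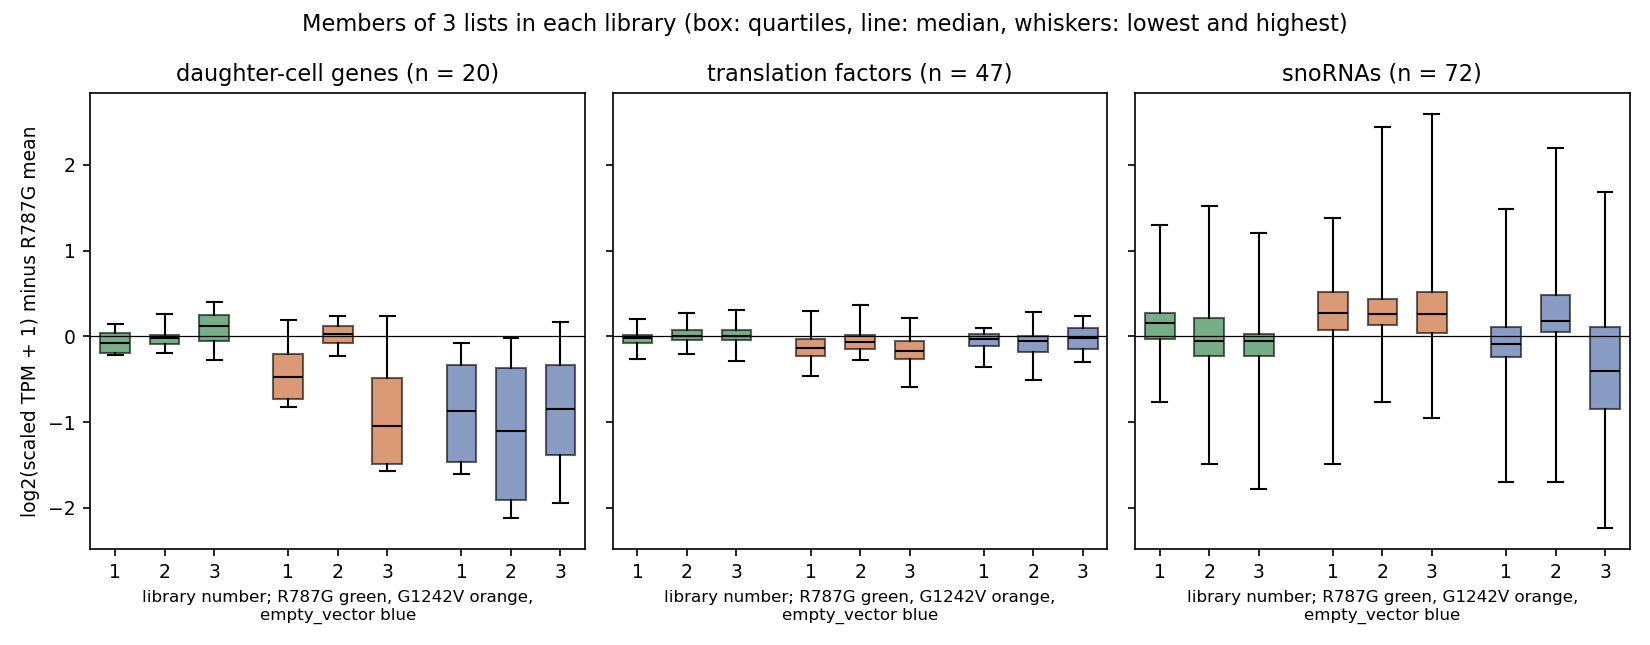
Log2 level minus the R787G mean (vertical axis) for the members of 3 lists in each library of R787G, the libraries labelled G1242V and empty_vector (horizontal axis). Boxes are quartiles, lines medians and whiskers the lowest and highest member; the daughter-cell boxes differ between libraries labelled G1242V (-0.48, 0.02 and -1.05), those of translation factors and snoRNAs much less.

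Purine synthesis genes also lay mostly above 0, with a median of 0.16 over 19 members, 17 above 0 and 8 higher in R787G without overlap (42.1%, with 11% of all features). Of these members 9 had the order of SCC2 (47.4%). GUA1, the GMP synthase, was at 103, 114 and 108 against 90.2, 90 and 80.7 (0.31, SE 0.07), and IMD3, an IMP dehydrogenase gene with near-identical relatives, at 61.5, 69 and 74 against 51.1, 59.2 and 47. ADE3, of one-carbon supply, was at 238, 256 and 242 against 206, 205 and 208. These strains carry ade2-1 in every group. Ribosome biogenesis genes had a small median of 0.06 over 153 members, and 34 were higher without overlap (22.2%, with 11% of all features) and 3 lower. The order of SCC2 held for 85 of the 153 (55.6%), and the median of library 2 labelled G1242V, -0.02, was within the spread of the R787G libraries. NOP1, the fibrillarin methyltransferase of C/D snoRNPs, was at 76, 80.3 and 83.3 against 63.6, 65.8 and 58.2 (0.35, SE 0.09), and CBF5, the pseudouridine synthase of H/ACA snoRNPs, at 83.3, 90.1 and 86.2 against 73.4, 77.9 and 68.7. RPA43, of RNA polymerase I, was at 37.2, 36.7 and 37.3 against 31, 31.8 and 28.7. The PAC letters GATGAG were present before 136 of the 153 ribosome biogenesis genes (88.9%), against 27.8% of all promoters. Cytosolic ribosomal protein genes had a median of -0.04 over 138. Without overlap were 2 on each side (1.45%, with 11% of all features higher and 12.5% lower). The order of SCC2 held for 83 of these 138 genes (60.1%, with 21.5% of all features). Their median was 0.06, 0.13 and -0.07 in libraries 1 to 3 labelled G1242V. R787G libraries 1 to 3, each against the other 2, spread more widely, at 0.29, 0.09 and -0.39.

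Small nucleolar RNAs, which guide the modification and cleavage of ribosomal RNA, lay mostly on the low side of R787G. Of 72 tested, 59 lay below 0 (median -0.24), 26 were lower without overlap (36.1%, with 12.5% of all features) and none was higher without overlap. The median in the libraries labelled G1242V was 0.28, 0.26 and 0.26. Each R787G library against the other 2, a different baseline, was at 0.23, -0.08 and -0.08, with library 1 the highest. snR77 and snR67 had the smallest p, and their RNA sequences are shown as the genes read, with the C box (TGATGA) and the D box (CTGA) that define the C/D class in capitals.
snR77, chrXIII:297506-297593: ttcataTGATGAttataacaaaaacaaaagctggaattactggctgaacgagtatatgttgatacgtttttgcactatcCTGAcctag
snR67, chrV:61352-61433: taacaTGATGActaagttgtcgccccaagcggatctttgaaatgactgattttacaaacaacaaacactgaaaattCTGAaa
snR77, which has 88 bases, was at 38.3, 25.1 and 29.4 in R787G and at 53.8, 58.2 and 63.8 in the libraries labelled G1242V (-0.92, SE 0.16, limma adjusted p = 0.117). The groups were well apart, and empty_vector, at 30.1, 31.6 and 36, was with R787G. snR67 was at 99, 71.2 and 76.9 against 113, 107 and 126 (-0.49, SE 0.12). The H/ACA RNA snR10 was at 11903, 8039.9 and 10850.0 against 17209, 14304 and 16397. snR48, of the largest spread, was at 3.3, 2.52 and 0 against 2.95, 12.5 and 13.9, with library 3 of R787G listed at 0.

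Short features of other kinds lay on the same side. Over 142 features of up to 200 bases, the median in libraries 1 to 3 labelled G1242V was 0.25, 0.27 and 0.25 against R787G, and over 682 of 201 to 500 bases it was 0.11, 0.11 and 0.08. In the 4 longer classes it was between -0.04 and 0.03. R787G library 1 was at 0.27 against the other 2 in the shortest class. Protein-coding genes of up to 200 bases alone gave 0.21, 0.24 and 0.18 (83 genes). Features higher in R787G without overlap had a median length of 1478 bases, those lower 882, and all features 1200. The part of length in the snoRNA values was not tested.

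**Figure D5:**
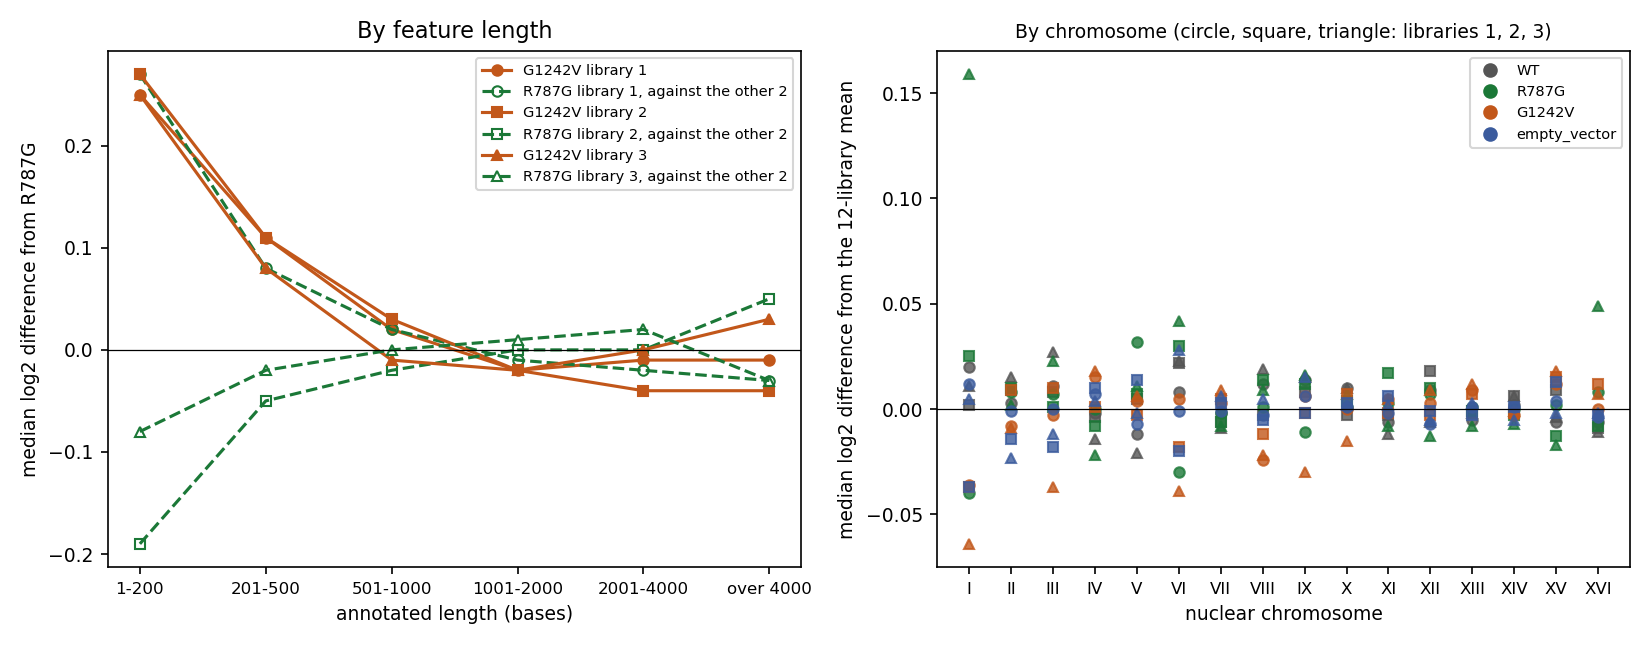
Left, median log2 difference from R787G (vertical axis) by annotated length in bases, for libraries labelled G1242V (filled, solid) and for each R787G library against the other 2 (open, dashed); the classes up to 200 bases reach 0.25 to 0.27. Right, median log2 difference from the 12-library mean for each of 16 nuclear chromosomes and 12 libraries; R787G library 3 stands at 0.159 on chromosome I.

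Genes of the zinc regulon, driven by Zap1 when zinc is scarce, lay below 0 in 23 of 24 cases (median -0.27), and 8 were lower in R787G without overlap (33.3%, with 12.5% of all features). By library the median was 0.28, 0.19 and 0.38 in those labelled G1242V, and 0.21, 0.08 and -0.24 among R787G libraries, so R787G library 3 was low by about as much as library 1 was high. In empty_vector it was 0.42, 0.36 and 0.31. The reverse of the SCC2 order held for 15 of the 24 (62.5%, with 19.7% of all features). At 9 (37.5%, with 7.54% of all features) libraries 1 and 3 labelled G1242V were above R787G with library 2 inside its range. YOR387C, an unnamed target, spread the most: it was at 75.4, 52.7 and 4.36 in R787G and 266, 68.2 and 356 in the libraries labelled G1242V, and at 418, 767 and 255 in empty_vector. Its near-identical relative VEL1 was at 37.1, 33.7 and 7.62 against 72.6, 35.5 and 90.8. In both, library 2 labelled G1242V lay within the R787G range and R787G library 3 was far below the rest. RTC4 was at 186, 186 and 138 against 245, 209.6 and 267 (-0.51, SE 0.13), and the high-affinity transporter gene ZRT1 at 4386, 4353 and 3744 against 4872, 4837 and 5305, both without overlap.

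At some genes of glucose response, library 1 labelled G1242V stayed with R787G while libraries 2 and 3 did not. HXT2, a high-affinity hexose transporter, was at 189, 185 and 153 in R787G and at 159, 64.6 and 67.5 in the libraries labelled G1242V (0.97, SE 0.28, limma adjusted p = 0.13). Libraries 2 and 3 were far below every R787G library and library 1 was inside their range. MTH1, a regulator of glucose sensing, was at 215, 187 and 192 against 199, 130.02 and 128. The glycogen branching enzyme gene GLC3 was at 234, 225 and 214 against 213, 124 and 130.1. There library 1 labelled G1242V was just below the lowest R787G library. Of 24 hexose transport and glucose signalling genes, 5 (HXT2, MIG1, MTH1, ADR1 and CAT8) had libraries 2 and 3 below every R787G library with library 1 inside their range (20.8%, with 2.72% of all features), while 6 had all 3 libraries labelled G1242V below R787G (25%, with 11%). Among 77 stress genes of Msn2 and Msn4 there were 8 (10.4%), among them GSY1, PGM2 and UGP1 of glycogen synthesis. In the same stress list 17 were higher in R787G without overlap with any library labelled G1242V (22.1%, with 11% of all features) and 6 were lower (7.79%, with 12.5%). TPS1, of trehalose synthesis, was at 565, 729 and 667 against 524, 518 and 493. The glucokinase gene GLK1 was at 1103, 1311 and 1272 against 893, 976 and 844, and HXK1, a hexokinase gene, at 975, 1149.5 and 1111 against 911, 732 and 673, with no overlap in either.

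On chromosome I, 22 of 88 genes were higher in R787G without overlap (25%, with 11% of all features). On the other side 10 were lower (11.4%, with 12.5% of all features), near the share over all features. R787G library 3 stood apart there, with a median of 0.159 above the 12-library mean. All other medians of a nuclear chromosome in a library lay between -0.064 and 0.049. In this library 76 of the 88 genes were above the mean and 34 were the highest of all 12, as were 14.1% of features genome-wide. Without it, 22 were again higher without overlap (25%), where the share of all features was 16.2%. Another 20 were lower, but the share of all features was not computed for these, and fewer libraries overlap less by construction. The chromosome's median difference went from 0.09 to 0.05. CYC3 lies on this chromosome, as do FUN26, at 35.8, 36 and 38.3 against 30.9, 31.6 and 29.5, ACS1, at 68.7, 77.2 and 92 against 65.5, 53.9 and 49.4, and the chaperone gene SSA1, at 1710.5, 2419 and 2500.4 against 1389.8, 1822 and 1520.5.

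Leaving out single libraries changed the count of calls. Without library 2 labelled G1242V, limma called 74 features (1.21%), 61 higher in R787G (1%) and 13 lower (0.213%). The calls included 12 of the 20 daughter-cell genes and 13 of the 46 CLB2 cluster genes, all higher in R787G, with CTS1 at 1.18, DSE1 at 1.13, CHS2 at 0.88 and SWI5 at 0.87, and HIS3 lower, at -1.29. Without library 1 of R787G, 135 were called (2.21%), 70 higher (1.15%) and 65 lower (1.07%), among them CYC3 (0.79), MFA2 (-1.31), snR77 (-1.08) and snR67 (-0.63). MFA2 encodes the a-factor pheromone and was at 237, 101 and 126 in R787G, library 1 being the high one, against 299, 259.5 and 291. These fits shared 15 calls. Without library 1 labelled G1242V there were 3 (0.0492%): GLC3 (0.82), HXT2 (1.39) and MAL31 (0.64), none of them among the 74 or the 135. With library 2 alone, assumed to vary like the other groups, none was called.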

How the data were processed

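The deposited table holds TPM per gene, which the authors made with RSEM, per the submitters' processing notes and the table's own name. The notes also list STAR, bcl2fastq 2.17 and the build sacCer3, and give no order or role. Per the labels' protocols, ribosomal RNA was removed with Ribo-Zero Gold before TruSeq Stranded library preparation, and reads were single, of 50 bp. Whether counting used the strand is not given in the sources used here.

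From the 7036 features deposited, 3 rows whose columns were out of register (DUR1,2, ADE5,7 and ARG5,6) and 1 unnamed column were left out, and 248 features had values identical to another's. TPM was scaled by median-of-ratios factors over 5421 features (mean TPM of 10 or more, none at 0), which ran from 0.904 to 1.19. Features averaging at least 1 TPM, 6097 in number, were fitted on log2(scaled TPM + 1), the pseudocount being 1, with limma 3.58.1 in R 4.3.3 (variance trend, moderated two-sided test, group as the only term, 12 libraries, residual degrees of freedom 8, prior 3.20). A feature was called at a Benjamini-Hochberg adjusted p under 0.05 over all 6097. The fit was tested on simulated data. No set test was run: 34 gene lists were described by counts and medians beside the same over all features.

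Locus tags matched 5953 features, and symbols 169, to the R64 reference annotation, from which coordinates, lengths and sequences come; 911 were not matched. The table holds no coordinates, so sacCer3 and R64 were not compared on the file. Named are SCC2, HIS3 and the cohesin genes, the 12 features of smallest p in each direction (called ones would have come first), and, at a mean TPM of 5 or more, the 8 of widest gap between groups in each direction and the 10 of largest spread within the libraries labelled G1242V, and the 2 members of smallest p of each list. Not all of these are printed. Other genes named were chosen after their values were seen. The comparison, members and lists were chosen with earlier results of these data known. Replicate numbers did not pair the libraries: deviations of equal numbers correlated at 0.103, -0.088 and -0.117. Alternatives tried were other pseudocounts, filters, scalings and fits, a replicate block, and leaving out libraries. Features that overlap on a strand, near-identical relatives and antisense genes may share reads. Some genes and the results that need them are not reported here.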

Additional observations from a re-analysis of the deposited data

How the results depend on the processing

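The count of 0 calls held under 14 of 17 alternatives, among them both pseudocounts, both filters, TPM as deposited, quantile normalization, only the 2 groups fitted and no variance trend. With a replicate block, whose numbers do not pair the libraries, it was also 0, with 1301 features at an unadjusted p under 0.05 against 1228. That unadjusted count was 621 without library 3 labelled G1242V, 454 with this library left out and only the 2 groups fitted, 300 with library 2 alone and 821 to 1624 with another single library left out; with TPM as deposited it was 882. Leaving out 1 library at a time gave 0 to 135 calls, the higher counts coming without R787G library 1 (135), without library 2 labelled G1242V (74) and without library 1 labelled G1242V (3). The 1435 features without overlap became 1706 to 2720 when 1 library was left out, and 2843 with library 2 labelled G1242V alone, partly because fewer libraries overlap less by construction. Of 109 named features, 13 changed sign under some alternative. With library 2 labelled G1242V alone, SCC2 went to -0.02, HIS3 to 0.04, DSE2 to -0.16, MCD1 to -0.15, ECO1 to -0.12, SMC3 to -0.02, RDN18-1 and RDN18-2 to -0.13, RDN25-1 and RDN25-2 to -0.20, and YLR466C-B, a reading frame outside the reference, to 0.98. With TPM as deposited, PDS1 was at -0.005 and SMC3 at -0.02. With only the 2 groups fitted and library 3 labelled G1242V left out, YLR466C-B was at 0.20. Leaving out single libraries gave -0.06 to 0.17 for ECO1, -0.04 to 0.10 for PDS1, -0.02 to 0.07 for SMC1, -0.03 to 0.03 for SMC3 and -0.76 to 0.20 for YLR466C-B. Besides the libraries left out, the cause of these changes was not tested. Unknown depth limits what can be said of low genes.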

Other observations

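Mating genes, those of a and of alpha cells together, lay below 0 in 19 of 23 cases with a median of -0.11, and 7 were lower in R787G without overlap (30.4%, with 12.5% of all features). STE18, of the pheromone-coupled G protein, was at 89, 72.5 and 67 scaled TPM in R787G and 96.5, 95.3 and 96.2 in the libraries labelled G1242V, where R787G library 1 was nearest to the other label. MFA1, the other a-factor gene, was at 118, 84.3 and 88 against 119, 118 and 138, with the same library nearest. Some mating genes, MFA2 among them, are short. Of all protein-coding genes of 201 to 500 bases, 20.5% were lower in R787G without overlap, and of those up to 200 bases 16.9%. The part of length in the mating genes was not tested. Meiosis and sporulation genes had a median of -0.09 over 38. Without overlap, 7 were lower (18.4%, with 12.5% of all features) and 2 higher (5.26%, with 11%). REC8, the meiotic kleisin, was at 11.4, 12.1 and 11 against 13.8, 13.2 and 15, and ZIP1, of the synaptonemal complex, at 28, 25.9 and 22.5 against 36.1, 32.1 and 39.6.

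Mitochondrial ribosomal protein genes had a median of 0.07 over 68, and 14 were higher in R787G without overlap (20.6%, with 11% of all features) and 3 lower. MRP20 was at 29.3, 29.7 and 31.3 against 25.4, 23.3 and 23.1, and MRPL44 went the other way, at 47.1, 43.3 and 56.5 against 58.1, 68 and 63.4. Gcn4 targets of amino acid synthesis had a median of 0.07 over 72. Without overlap, 14 were higher (19.4%, with 11% of all features) and 4 lower (5.56%, with 12.5%). SHM2, of serine and glycine metabolism, was at 132, 122 and 127 against 111, 105.1 and 101. LEU1, of leucine synthesis, was at 398, 377 and 457 against 243, 420.2 and 223, where libraries 1 and 3 labelled G1242V were low and library 2 was within the R787G range. The linker histone gene HHO1 was at 46.5, 50.2 and 57.9 against 38.1, 44.3 and 35, while HTB2, a gene of histone H2B, was at 134, 118 and 104 against 141, 178 and 169.6. Of the 34 lists, 10 had a median above 0.1, 4 below -0.1 and 20 within 0.1 of 0, and none had a called member.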
